A study of Danio rerio with 6 samples.

Results

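The BTG and Tob genes are a small family of deadenylation adaptors, and 6 of them, btg1, btg2, btg3, btg4, tob1a and tob1b, were followed here through the first hours of zebrafish development. They were taken by gene symbol from a table of 32571 genes, in which each symbol stood on 1 row. Proteins of this family share an amino-terminal domain that binds the Caf1-type deadenylases of the CCR4-NOT complex (CNOT7 and CNOT8), which shorten the poly(A) tail of mRNAs. Tob proteins also bind the cytoplasmic poly(A)-binding protein through their carboxy-terminal part, so they can bring the deadenylase to a poly(A) tail. In mouse, BTG4 is made in the maturing oocyte and is needed for the decay of maternal mRNA at the start of development, whereas BTG1 and BTG2 are best known in mammals as genes that restrain cell proliferation.

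RNA was extracted from pools of 40 to 50 whole embryos of the AB strain and sequenced after depletion of ribosomal RNA. At 6 hours post fertilisation (hpf) 5 groups were taken. In the miR-430 MO group the microRNA miR-430 was blocked by an injected antisense morpholino. The CNOT7-DN group received CNOT7-DN by injection, which the series design lists as CNOT7 inhibition. The amanitin group received alpha-amanitin, which blocks RNA polymerase II. In the authors' comparisons control B was the reference of amanitin, and control 6 hpf that of miR-430 MO and CNOT7-DN. Control 6 hpf and amanitin were each also compared with 2 hpf. Control embryos at 2 hpf, before the main onset of transcription from the embryo's own genome, formed the last group. The labels call both 6 hpf controls and the 2 hpf group controls and do not say whether these embryos were injected. Levels are FPKM (fragments scaled by gene length and by the number of fragments mapped). The series design states triplicates, but the table gives 1 value per group, so no value below has a standard deviation and the depth behind it is unknown. Genes that rose or fell are those with q under 0.05 in the authors' deposited table. The smallest p of Cuffdiff listed there is 5e-05. Genes at that floor share the same q within a comparison, so an equal q does not mean equal strength. Log2 ratios and counts of genes at least 2-fold apart are of FPKM + 1, and folds given for single genes are of FPKM. All 6 genes passed a minimum of 1 FPKM in the higher group and were tested in each of the 5 deposited comparisons.

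Marker genes were checked against the labels. The 6 zygotic markers found (tbx16, ntla, vox, sox32, ndr1 and gsc) lay between 17.8 and 436 FPKM in every 6 hpf group but amanitin, where their highest level was 2.01 FPKM, against 2.03 FPKM at 2 hpf. The 8 rows of markers of later tissues, such as globin, lens and muscle genes, were at most 0.296 FPKM in any group. The row of cnot7, the gene named by CNOT7-DN, stood at 12850 FPKM in CNOT7-DN embryos, 12.6 FPKM in miR-430 MO, 24.6 FPKM in amanitin, 4.55 FPKM in control B, 7.4 FPKM in control 6 hpf and 26.9 FPKM at 2 hpf; injected and embryonic RNA cannot be told apart in it. In whole embryos, fewer cells of a type and less RNA per cell cannot be told apart either, and FPKM are relative to all RNA sequenced.

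The 6 genes lie on 6 chromosomes, given here on Zv9 as in the table. btg1 (ENSDARG00000027249) spans 15604356 to 15613269 on chromosome 4, btg3 (ENSDARG00000069065) 29052596 to 29062709 on chromosome 10, btg4 (ENSDARG00000035171) 59273721 to 59275804 on chromosome 5 and tob1b (ENSDARG00000021372) 1044227 to 1047498 on chromosome 12. No other row overlaps these loci. The locus of btg2 (ENSDARG00000020298), 745664 to 789091 on chromosome 22, is shared with the cryptochrome gene cry2b, which was between 4.33 and 16.7 FPKM. The locus of tob1a (ENSDARG00000032619), 17914555 to 18021145 on chromosome 3, is shared with 3 rows, of which the highest, si:ch211-261n9.2, reached 13.3 FPKM. The levels of btg2 and tob1a were between 112.7 and 184 FPKM and between 89.1 and 193 FPKM, far above those of the rows that share their loci, but how reads were divided among rows is not stated.

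The paralogs tob1a and tob1b have paralogs as neighbours on the lower-coordinate side. There the nearest separate locus is wfikkn2a, 80.9 kb from the tob1a locus, and wfikkn2b, 38.7 kb from the tob1b locus. The tob1a locus is the one of 106.59 kb shared with 3 other rows, so distances from tob1a itself are not known. On the higher-coordinate side the nearest separate loci differ. They are spag9a, 6.71 kb from the tob1a locus, and the row CABZ01073118.1, 67.5 kb from the tob1b locus. The highest level of either wfikkn2 copy in any group was 1.05 FPKM. The compact btg4 locus has the row of the microRNA gene mir34b 2.01 kb away on its lower-coordinate side. That row was listed at 0 in all 6 groups, which does not show that the microRNA itself was absent.

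With btg4 included, the family as a whole was most abundant in the egg-derived RNA of 2 hpf embryos, and its make-up differed between groups. The summed level of the 6 genes was 648 FPKM in miR-430 MO, 604 FPKM in CNOT7-DN, 681 FPKM in amanitin, 402 FPKM in control B, 456 FPKM in control 6 hpf and 1273 FPKM at 2 hpf. The 3 injected groups thus lay above both 6 hpf controls in this sum and below 2 hpf, a description for which no test can be made. Without btg4 the sum was 398 FPKM in control 6 hpf and 655 FPKM at 2 hpf, so most of the gap between these stages lay in btg4. In the other groups the sum without btg4 was 658 FPKM in amanitin, 618.5 FPKM in miR-430 MO, 521 FPKM in CNOT7-DN and 372 FPKM in control B. By that sum amanitin and 2 hpf lay at about the same level in deposited FPKM, and their order is not to be read from so small a gap. The btg4 gene made up 12.8% of the full sum in control 6 hpf, against 48.6% at 2 hpf. At 6 hpf btg2 was the leading member in both controls and in CNOT7-DN, tob1a in miR-430 MO (29.9% of the sum) and btg3 in amanitin (44.5% of the sum).

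**Figure D1:**
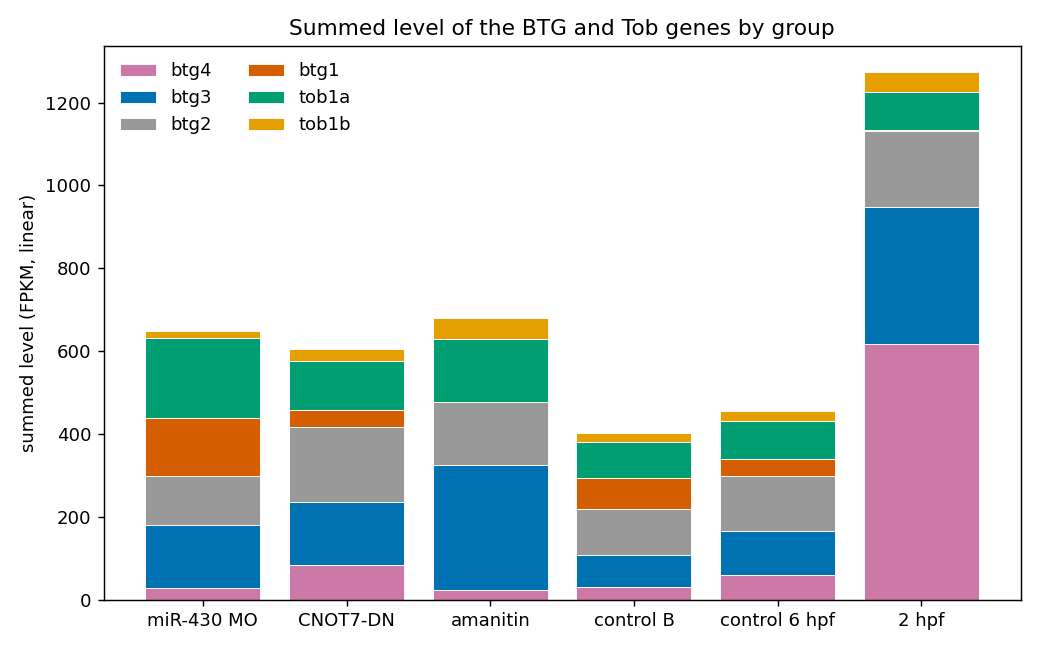
Summed level (FPKM, linear axis) of the 6 BTG and Tob genes in each group, with each colour 1 gene and 1 value per gene and group. The btg4 segment takes 48.6% of the bar at 2 hpf and between 3.34% (amanitin) and 13.8% (CNOT7-DN) at 6 hpf, while btg1 is visible only in the 6 hpf groups other than amanitin.

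The comparison of control 6 hpf with 2 hpf asks how the RNA level of each adaptor differs once the embryo has started its own transcription. A level at 6 hpf does not separate remaining egg RNA from new RNA. The family split: btg4, btg3, tob1b and btg2 fell, btg1 rose and tob1a was not called. That is 1 rise and 4 falls among 6 genes; among all 15504 genes tested, 72.5% were called, 20.8% as risen and 51.7% as fallen. The median log2 ratio of the 6 genes was -0.72, against -0.50 over all tested genes. By size, 1 of the 6 was at least 2-fold higher and 2 were at least 2-fold lower in control 6 hpf, beside 18.6% and 29.9% of all genes considered.

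The egg adaptor btg4 was at 58.4 FPKM in control 6 hpf, against 618 FPKM at 2 hpf, where it ranked 122nd among 14122 genes with an FPKM of at least 1. Its log2 ratio was -3.38, a level 10.6-fold lower (q = 0.0001 in the authors' deposited table). Of the 15504 tested genes, 12 had a lower ratio. The level in control 6 hpf was 9.45% of the 2 hpf level in FPKM.

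The adaptor btg3, whose mammalian counterpart is also called ANA, was at 107 FPKM in control 6 hpf, against 329 FPKM at 2 hpf, 3.08-fold lower (log2 ratio -1.61, q = 0.0001 in the authors' deposited table). The Tob copy tob1b was at 24 FPKM in control 6 hpf, against 48.3 FPKM at 2 hpf (log2 ratio -0.98, q = 0.0001 in the authors' deposited table). A smaller difference was that of btg2, a p53-responsive gene in mammals, at 133 FPKM in control 6 hpf, against 184 FPKM at 2 hpf (log2 ratio -0.47, q = 0.0001 in the authors' deposited table). The fall of btg2 equalled that of the median gene: centred on that gene, its log2 ratio was -0.0024.

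The sole rise was that of btg1, at 41.2 FPKM in control 6 hpf, against 3.35 FPKM at 2 hpf, 12.3-fold higher (log2 ratio 3.28, q = 0.0001 in the authors' deposited table). Of the genes tested, 736 had a higher ratio. The paralog of tob1b, tob1a, stood at 93 FPKM in control 6 hpf, against 90.5 FPKM at 2 hpf (log2 ratio 0.04, q = 0.764 in the authors' deposited table). The level of tob1a thus lay close at both stages in deposited FPKM, while tob1b was 2.01-fold lower in control 6 hpf in FPKM and just short of 2-fold in FPKM + 1; the difference between the copies was not tested. How tob1a compares depends on the scaling. Its log2 ratio was -0.47 with FPKM rescaled to equal sums, -0.92 centred on ribosomal protein genes and 0.50 centred on the median gene.

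**Figure D2:**
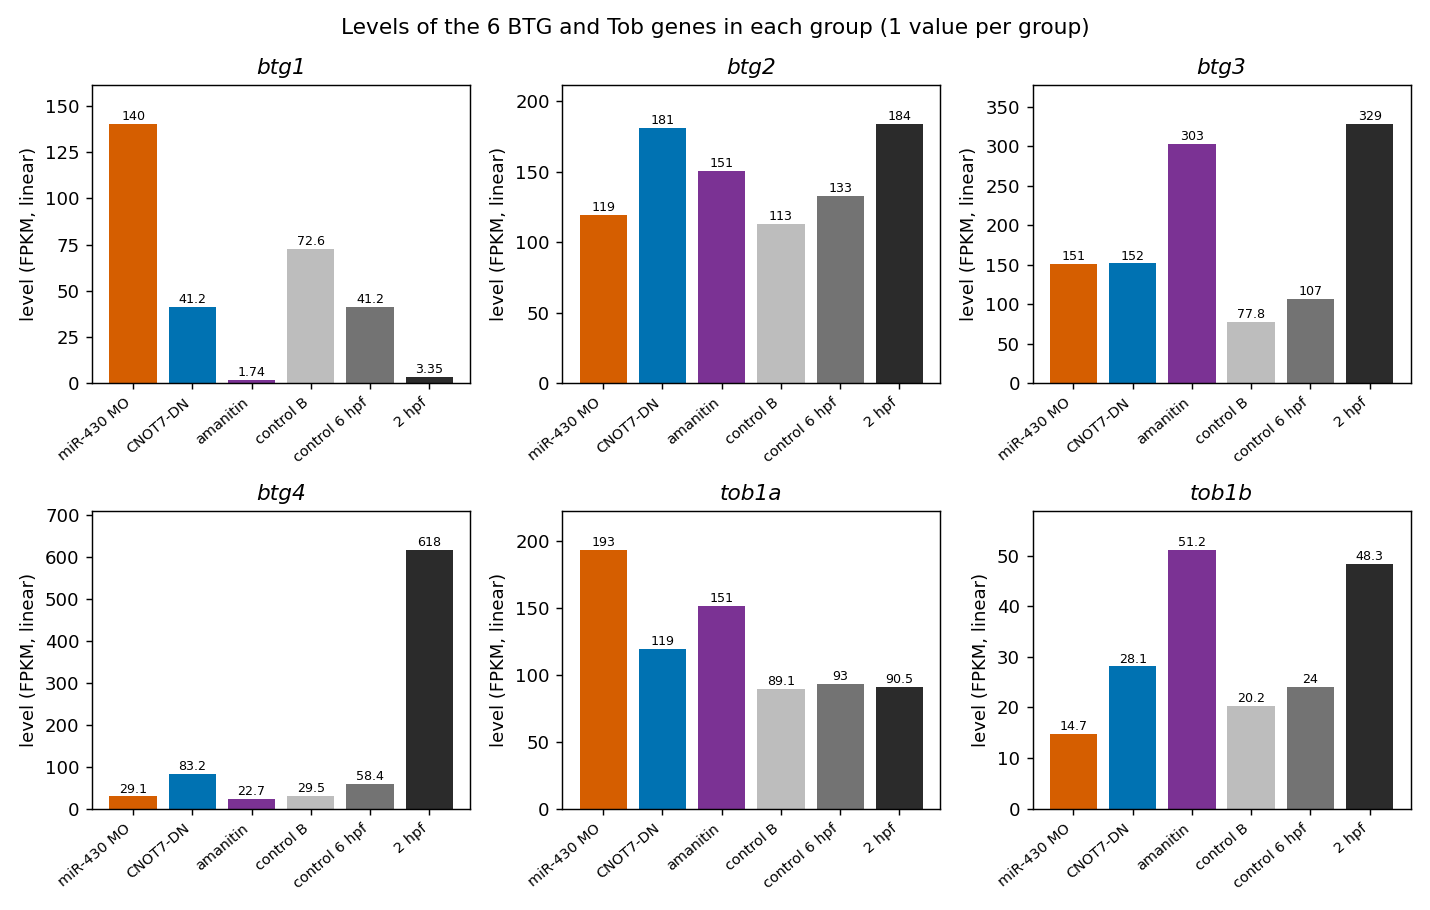
Level (FPKM, linear axis, a separate scale per panel) of each gene in the 6 groups, with 1 bar per group and its value above it. btg4 is high at 2 hpf alone, btg1 is low at 2 hpf and in amanitin, btg3 and tob1b are highest at 2 hpf and in amanitin, and tob1a is highest in miR-430 MO.

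Embryos with blocked miR-430, a microRNA family made at the onset of zygotic transcription that clears many maternal mRNAs, showed differences in both directions within the family. btg1, tob1a and btg3 rose, btg4 and tob1b fell and btg2 was not called. These 3 rises and 2 falls among 6 genes stand beside 25.5% called over all 14301 tested genes, 9.41% as risen and 16.1% as fallen. The median log2 ratio was 0.17 for the 6 genes and -0.12 for all tested genes. By size, 2 of the 6 genes were at least 2-fold higher in miR-430 MO and 0 at least 2-fold lower, beside 2.66% and 2.26% of all genes considered.

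The level of btg1 was 140.4 FPKM in miR-430 MO, against 41.2 FPKM in control 6 hpf, 3.41-fold higher (log2 ratio 1.75, q = 0.000589 in the authors' deposited table). Only 50 of the 14301 tested genes had a higher ratio. In control B, which the authors did not test against the morpholino, btg1 was at 72.6 FPKM, so the morpholino level exceeded both controls and the ratio over control B was smaller, at 0.94. The level of tob1a was 193 FPKM in miR-430 MO, against 93 FPKM in control 6 hpf, 2.08-fold higher (log2 ratio 1.05, q = 0.000589 in the authors' deposited table). Here the controls lay close together, with 89.1 FPKM in control B, and the log2 ratio over control B was 1.11. The level of btg3 was 151 FPKM in miR-430 MO, against 107 FPKM in control 6 hpf (log2 ratio 0.49, q = 0.00304 in the authors' deposited table) and 77.8 FPKM in control B.

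Among the falls, tob1b was at 14.7 FPKM in miR-430 MO, its lowest level in any group, against 24 FPKM in control 6 hpf (log2 ratio -0.67, q = 0.000589 in the authors' deposited table) and 20.2 FPKM in control B. The Tob copies therefore differed in direction, tob1a above and tob1b below both controls. The level of btg4 was 29.1 FPKM in miR-430 MO, against 58.4 FPKM in control 6 hpf (log2 ratio -0.98, q = 0.000589 in the authors' deposited table). That fall rests on the choice of control, since control B stood at 29.5 FPKM and the log2 ratio over it was -0.019. The level of btg2 was 119 FPKM in miR-430 MO, against 133 FPKM in control 6 hpf (log2 ratio -0.15, q = 0.395 in the authors' deposited table).

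Some markers of the egg were lower with btg4 in miR-430 MO. The 6 markers found (cldng, zar1, dazl, zar1l, mos and buc) summed to 235 FPKM in miR-430 MO, 531 FPKM in CNOT7-DN, 467 FPKM in amanitin, 242.5 FPKM in control B, 320 FPKM in control 6 hpf and 2846 FPKM at 2 hpf. By the authors' q against control 6 hpf, 3 of the 6 fell in miR-430 MO (zar1l, mos and cldng) and 0 rose. These 3 lay below control B as well, while zar1, dazl and buc lay above it. Of all tested genes 9.41% rose and 16.1% fell in miR-430 MO. In amanitin against control B, where btg4 fell, 3 of the 6 rose (zar1, dazl and buc) and 1 fell (zar1l) by the authors' q. There 41.6% of all tested genes rose and 29.2% fell. The part of the egg markers in the btg4 results was not tested.

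In embryos with CNOT7-DN every member lay at or slightly above control 6 hpf. The levels of btg4, btg3, btg2 and tob1a rose, and btg1 and tob1b were not called. These 4 rises and 0 falls among 6 genes stand beside 14.1% called over all 14439 tested genes, 10.1% as risen and 4.0% as fallen. The median log2 ratio was 0.40 for the 6 genes and 0.040 for all tested genes. By size, 0 of the 6 were 2-fold higher and 0 were 2-fold lower, beside 1.51% and 1.26% of all genes considered.

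The level of btg4 was 83.2 FPKM in CNOT7-DN, against 58.4 FPKM in control 6 hpf, 1.42-fold higher (log2 ratio 0.50, q = 0.0018 in the authors' deposited table). Over control B, at 29.5 FPKM, the btg4 level in CNOT7-DN was 2.82-fold higher (log2 ratio 1.47, with no test). The level of btg3 was 152 FPKM in CNOT7-DN, against 107 FPKM in control 6 hpf (log2 ratio 0.50, q = 0.0018 in the authors' deposited table) and 77.8 FPKM in control B. Both genes thus rose by about the same factor over control 6 hpf, and the levels in CNOT7-DN were 13.5% of the 2 hpf level for btg4 and 46.1% for btg3. The level of btg2 was 181 FPKM in CNOT7-DN, close to its 184 FPKM at 2 hpf, against 133 FPKM in control 6 hpf (log2 ratio 0.44, q = 0.00326 in the authors' deposited table). The level of tob1a was 119 FPKM in CNOT7-DN, against 93 FPKM in control 6 hpf (log2 ratio 0.35, q = 0.0293 in the authors' deposited table).

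The genes without a call were tob1b, at 28.1 FPKM in CNOT7-DN, against 24 FPKM in control 6 hpf (log2 ratio 0.22, q = 0.304 in the authors' deposited table), and btg1, at 41.2 FPKM in both groups (log2 ratio 0.0015, q = 0.995 in the authors' deposited table). For btg1 the match is to control 6 hpf alone, because control B was at 72.6 FPKM. Of the 6 egg markers, 3 (zar1l, cldng and mos) rose here in the authors' deposited table and 0 fell. The others, zar1, dazl and buc, had no call. Of all tested genes 10.1% rose and 4.0% fell in CNOT7-DN. The part of the egg markers in the btg4 result was not tested.

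**Figure D3:**
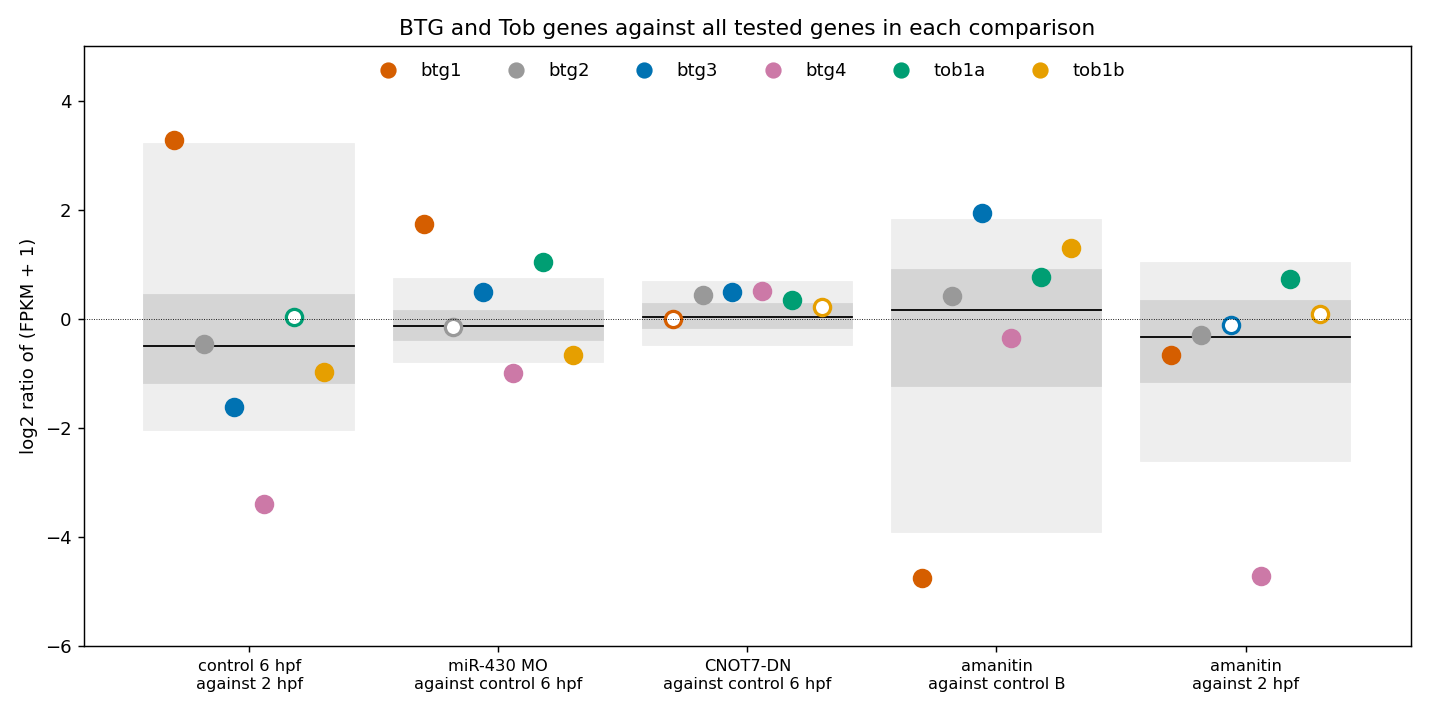
Log2 ratio of FPKM + 1 of each gene in the 5 deposited comparisons, with filled points for genes with q under 0.05 in the authors' deposited table and open points for the others. Pale and dark grey boxes hold the middle 90% and the middle 50% of all tested genes and the line is their median. btg4 lies below the pale box in both comparisons with 2 hpf and in miR-430 MO, btg1 and tob1a lie above it in miR-430 MO, btg1 also lies above it in control 6 hpf against 2 hpf and below it in amanitin against control B, where btg3 lies above it, and all points for CNOT7-DN lie inside it.

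Amanitin embryos, set against control B, show how relative levels differ when RNA polymerase II is blocked. Since FPKM are relative, a rise or fall in them does not by itself show which levels need transcription by the embryo. btg1 and btg4 fell and btg3, tob1b, tob1a and btg2 rose, so all 6 genes were called. Of all 15235 tested genes 70.8% were called, 41.6% as risen and 29.2% as fallen. The median log2 ratio was 0.59 for the 6 genes and 0.16 for all tested genes. By size, 2 of the 6 were at least 2-fold higher in amanitin and 1 at least 2-fold lower, beside 20.5% and 28.7% of all genes considered.

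The level of btg1 was 1.74 FPKM in amanitin, against 72.6 FPKM in control B, 41.8-fold lower (log2 ratio -4.75, q = 0.000105 in the authors' deposited table). Of the tested genes 459 had a lower ratio. Over control 6 hpf, at 41.2 FPKM, the level in amanitin was 23.7-fold lower (log2 ratio -3.94, with no test). Amanitin also held less btg1 than the 3.35 FPKM of 2 hpf embryos (log2 ratio -0.67, q = 0.000123 in the authors' deposited table). Its highest and lowest levels over the groups, in miR-430 MO and amanitin, were 80.7-fold apart, the widest span of the 6 genes.

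The opposite was seen for btg3, at 303 FPKM in amanitin, against 77.8 FPKM in control B, 3.89-fold higher (log2 ratio 1.95, q = 0.000105 in the authors' deposited table). The btg3 level in amanitin was 92.1% of that at 2 hpf in FPKM, and these groups were not called apart (log2 ratio -0.12, q = 0.369 in the authors' deposited table). The level of tob1b was 51.2 FPKM in amanitin, against 20.2 FPKM in control B (log2 ratio 1.30, q = 0.000105 in the authors' deposited table). It too lay near its level at 2 hpf, 48.3 FPKM (log2 ratio 0.081, q = 0.578 in the authors' deposited table). Thus btg3 and tob1b, which fell in control 6 hpf against 2 hpf, stood in amanitin at about their 2 hpf levels.

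The level of tob1a was 151 FPKM in amanitin, against 89.1 FPKM in control B (log2 ratio 0.76, q = 0.000105 in the authors' deposited table). Unlike tob1b it was also above its own 2 hpf level of 90.5 FPKM (log2 ratio 0.74, q = 0.000123 in the authors' deposited table). A rise in FPKM where little RNA is made does not show synthesis, since other RNA may have been lost. The level of btg2 was 151 FPKM in amanitin, against 112.7 FPKM in control B (log2 ratio 0.42, q = 0.00248 in the authors' deposited table) and 184 FPKM at 2 hpf (log2 ratio -0.29, q = 0.0381 in the authors' deposited table). With a span of 1.63-fold over all 6 groups, btg2 varied least of the 6 genes.

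The behaviour of btg4 in amanitin differed from that of btg3 and tob1b. Its level was 22.7 FPKM in amanitin, the lowest of any group, against 29.5 FPKM in control B (log2 ratio -0.36, q = 0.0301 in the authors' deposited table) and 618 FPKM at 2 hpf, 27.2-fold lower (log2 ratio -4.70, q = 0.000123 in the authors' deposited table). The level in amanitin was 3.68% of the 2 hpf level in FPKM, and 10 of the 13957 genes tested between these groups had a lower ratio. The fall against control B was smaller than that against control 6 hpf, where the log2 ratio was -1.32, and it changed sign to 0.75 when ratios were centred on ribosomal protein genes. Against 2 hpf, 1 of the 6 genes rose (tob1a) and 3 fell (btg4, btg1 and btg2), where 66.3% of all tested genes were called, 22.2% as risen and 44.1% as fallen; the median log2 ratio was -0.20 for the 6 genes and -0.34 for all tested genes. By size, 0 of the 6 were at least 2-fold higher in amanitin than at 2 hpf and 1 at least 2-fold lower, beside 5.5% and 28.3% of all genes considered. The comparisons with control B and with 2 hpf share the amanitin group.

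The 6 hpf controls give the one difference between groups labelled as controls at the same stage. Control B was at 72.6 FPKM for btg1, against 41.2 FPKM in control 6 hpf (log2 ratio 0.80), and at 29.5 FPKM for btg4, against 58.4 FPKM in control 6 hpf (log2 ratio -0.96). The other 4 genes had log2 ratios between -0.45 (btg3) and -0.061 (tob1a), and none of the 6 was 2-fold apart, as were 3.91% of genes considered. The rises in CNOT7-DN are to be read beside these values: the log2 ratio of btg4, 0.50, was smaller than the difference between the controls and that of btg3, 0.50, about equal to it, while those of btg2 (0.44, against 0.24 between the controls) and tob1a (0.35, against 0.061) were larger. Over control B in place of control 6 hpf, the log2 ratios in CNOT7-DN were 1.47 for btg4 and 0.95 for btg3. Those of btg2 and tob1a were 0.68 and 0.41, so these 4 genes lay above both controls. The uncalled tob1b also lay above both, with log2 ratios of 0.22 over control 6 hpf and 0.45 over control B.

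**Figure D4:**
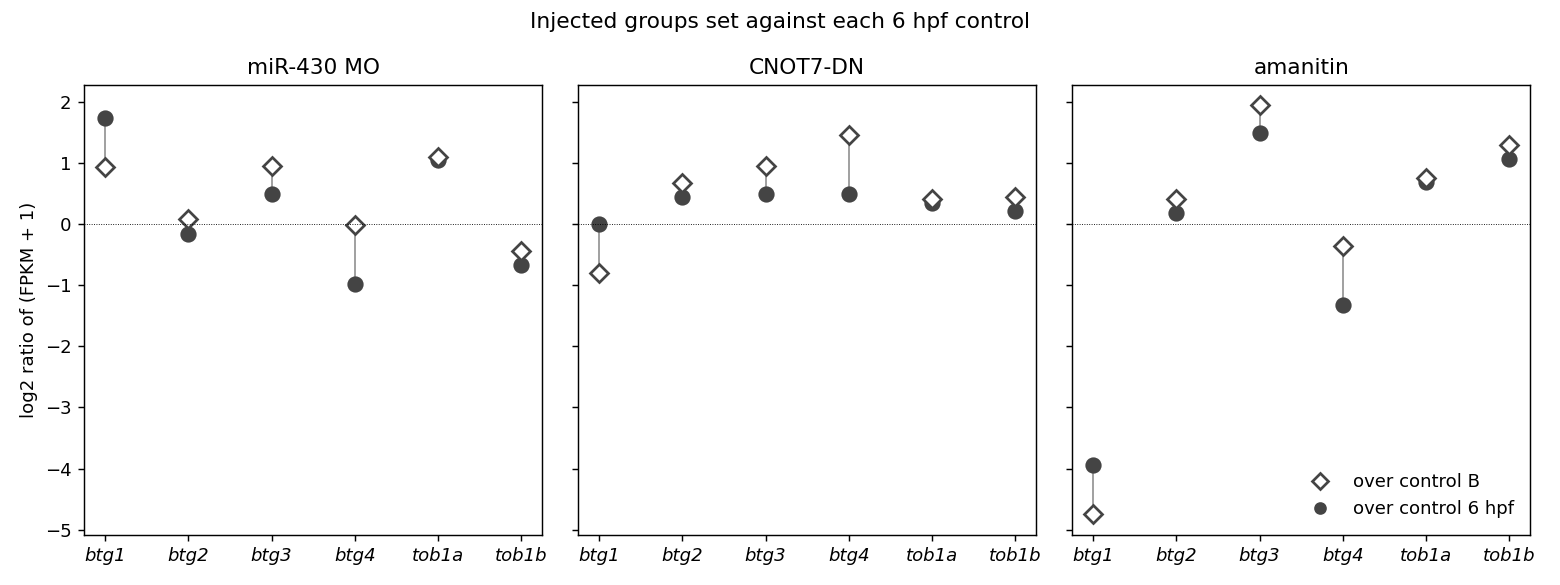
Log2 ratio of FPKM + 1 of each gene in the 3 injected groups over control B (open diamonds) and over control 6 hpf (filled circles), with a line joining the pair. In miR-430 MO the btg4 ratio is -0.019 over control B and -0.98 over control 6 hpf, whereas for tob1a the pair nearly coincide at 1.11 and 1.05.

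Across the 6 groups the genes followed different courses. Profiles were compared by the root mean square difference of log2(FPKM + 1) after centring each gene on its own mean over the groups, a description over 6 values that share libraries. Among the members the closest pair was btg3 and tob1b, at 0.44, though 2102 of 10159 other named genes lay closer to btg3 than tob1b did. The paralogs tob1a and tob1b were 0.83 apart, and the farthest pair was btg1 and btg4, at 3.09.

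These 10159 other genes had a unique symbol, no placeholder or clone name and an FPKM of at least 5 in some group. Among them, those nearest to btg4 were cldng, a claudin gene (0.21), hbegfb, a growth factor gene (0.27), and gbgt1l1 (0.28). In cldng the level was 51.7 FPKM in miR-430 MO, 202 FPKM in CNOT7-DN, 55.9 FPKM in amanitin, 67 FPKM in control B, 97.8 FPKM in control 6 hpf and 1373 FPKM at 2 hpf. Like btg4, it was highest at 2 hpf and, among the 6 hpf groups, in CNOT7-DN. Nearest to btg1 were igf2a, an insulin-like growth factor gene (0.20), the forkhead factor foxi1 (0.37) and lpar6a, a lysophosphatidic acid receptor gene (0.40). The level of igf2a was 60.8 FPKM in miR-430 MO, 14.2 FPKM in CNOT7-DN, 0.329 FPKM in amanitin, 32.6 FPKM in control B, 22.9 FPKM in control 6 hpf and 1.23 FPKM at 2 hpf, so it too was highest in the morpholino group and lowest in amanitin. Since cldng and igf2a were picked by nearness over these same groups, such shared highs and lows follow from the choice.

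The other members had near neighbours of less range. Nearest to btg2 were ppp6c, a catalytic phosphatase subunit (0.056), tmem64 (0.069) and the exosome subunit exosc9 (0.074). Nearest to btg3 were arhgap24 (0.059), the vacuolar sorting gene vps11 (0.077) and rbfox3l (0.089). Nearest to tob1a were the ubiquitin-activating enzyme uba1 (0.12), mob1ba (0.16) and slc35b4 (0.17), and nearest to tob1b were CCDC50 (1 of 2) (0.092), the histone deubiquitinase mysm1 (0.094) and cept1a (0.096).

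**Figure D5:**
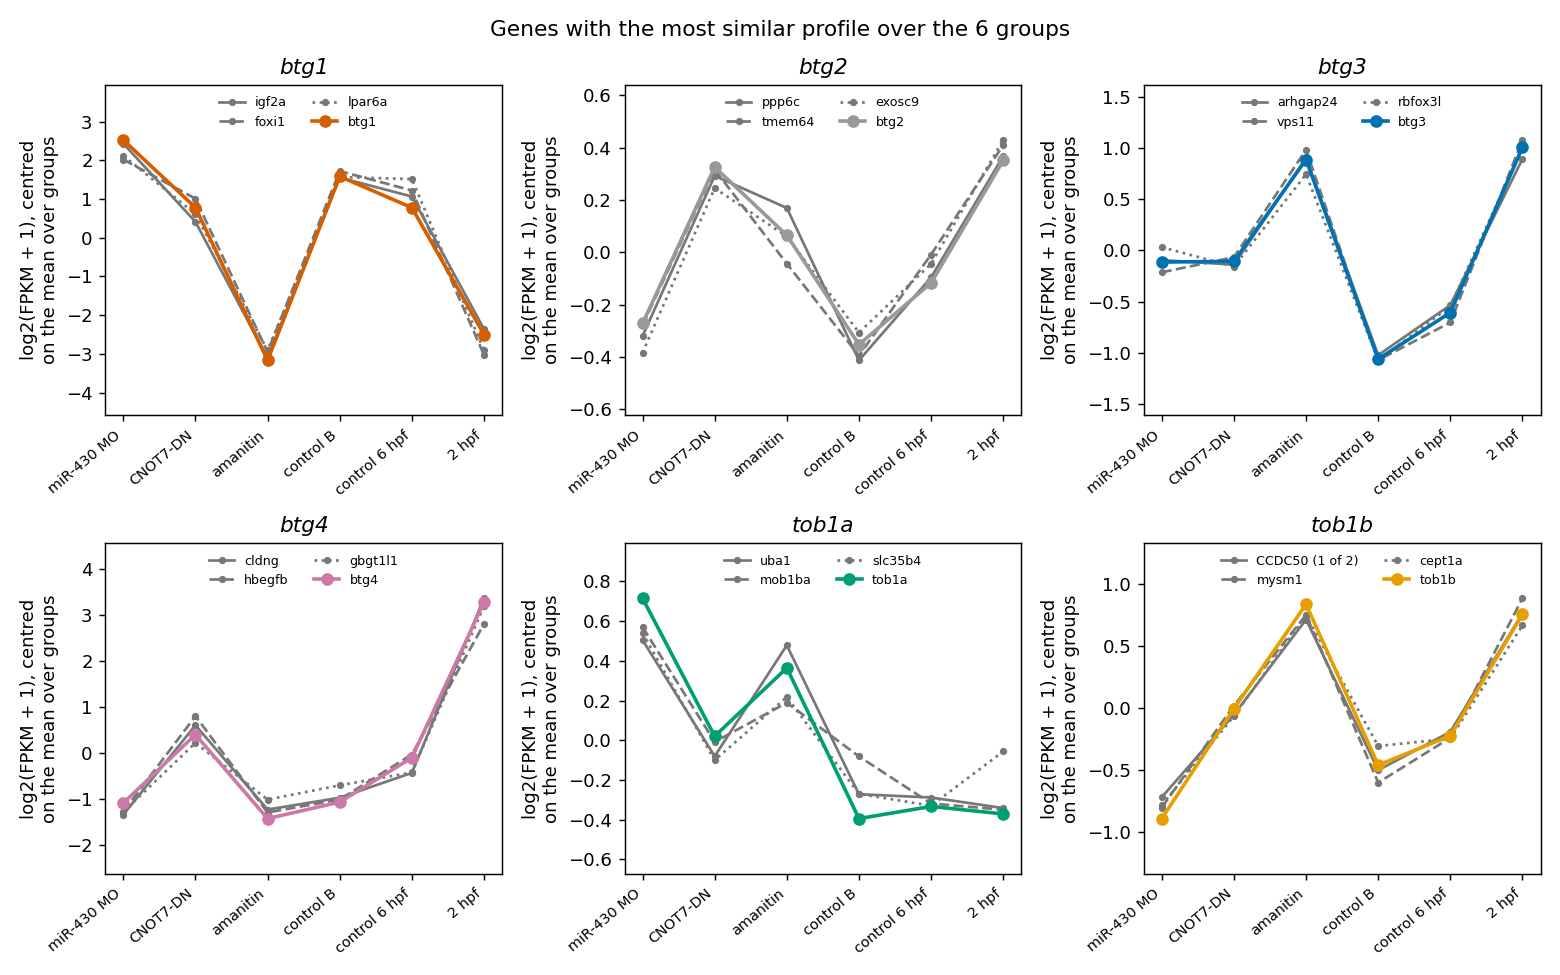
Profiles of log2(FPKM + 1), centred on each gene's mean over the groups, for each member (coloured) and the 3 genes nearest to it (grey); lines only join the values of a gene, since the groups have no order. Ranges differ between panels, from btg2, whose levels span 1.63-fold, to btg1, whose levels span 80.7-fold.

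A further row of the family, labelled TOB2 and no member of the set, was at 28.5 FPKM in miR-430 MO, 37.6 FPKM in CNOT7-DN, 61.7 FPKM in amanitin, 37.0 FPKM in control B, 37.0 FPKM in control 6 hpf and 100.7 FPKM at 2 hpf. It fell in control 6 hpf against 2 hpf and rose in amanitin over control B in the authors' deposited table, as tob1b did, and unlike tob1b it had no call in miR-430 MO (q = 0.0862 in the authors' deposited table). In amanitin against 2 hpf TOB2 fell (log2 ratio -0.70, q = 0.000123 in the authors' deposited table), where tob1b had no call.

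Genes for deadenylases, not only the Caf1-type ones that these adaptors bind, went both ways. Of 17 rows found for CCR4-NOT subunits and other deadenylases, 4 rose and 7 fell in control 6 hpf against 2 hpf. These are calls of the authors' deposited table, and the median log2 ratio was -0.23, against -0.50 over all tested genes. Of all tested genes 20.8% rose and 51.7% fell in that comparison. The shares were 10.1% and 4.0% in CNOT7-DN, 9.41% and 16.1% in miR-430 MO, and 41.6% and 29.2% in amanitin against control B. The paralog of cnot7, cnot8, was at 183 FPKM in CNOT7-DN, against 145 FPKM in control 6 hpf, and was called risen in the authors' deposited table, where 2 of the 17 rose, cnot7 itself being the other, and 1 fell. In miR-430 MO 5 rose and 0 fell, among them cnot7 (12.6 FPKM, against 7.4 FPKM in control 6 hpf), the Pan2 deadenylase gene pan2 (28.5 FPKM, against 18.7 FPKM in control 6 hpf) and rqcd1, a subunit of CCR4-NOT (57.2 FPKM, against 38.8 FPKM in control 6 hpf), and the median log2 ratio was 0.14, against -0.12 over all tested genes. The rise of cnot6 rests on the choice of control. It was at 112 FPKM in miR-430 MO, 83.3 FPKM in control 6 hpf and 140.5 FPKM in control B. The other risen rows lay above both controls. In amanitin against control B 9 rose and 5 fell (median log2 ratio 0.56, against 0.16 over all tested genes), with cnot8 at 326 FPKM in amanitin, against 111 FPKM in control B, and the Nocturnin-type gene ccrn4la at 0.365 FPKM in amanitin, against 77.1 FPKM in control B. Like btg1, ccrn4la was higher in control 6 hpf (63.6 FPKM) than at 2 hpf (7.24 FPKM), but in miR-430 MO it stood at 58.9 FPKM.

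The list of poly(A)-binding proteins was split by stage. Tob proteins bind the cytoplasmic type, here the pabpc family, but the list also holds pabpn1 and pabpn1l of the pabpn family. Where the proteins lie in the cell was not measured. It also holds paip1 and paip2b, whose proteins interact with poly(A)-binding proteins. Of 7 tested rows, 3 rose and 3 fell in control 6 hpf against 2 hpf in the authors' deposited table. Of all tested genes 20.8% rose and 51.7% fell. The level of pabpc1a was 531 FPKM in control 6 hpf, against 241 FPKM at 2 hpf. By contrast pabpn1l, a pabpn family member of the egg, was at 87 FPKM in control 6 hpf, against 339 FPKM at 2 hpf. The split did not follow these families. In the pabpc family pabpc1l also fell, at 33.9 FPKM in control 6 hpf, against 114.6 FPKM at 2 hpf. In the pabpn family pabpn1 had no call, at 129 FPKM in control 6 hpf, against 120 FPKM at 2 hpf. In miR-430 MO 0 of the 7 were called by Cuffdiff, and 2 had an unadjusted p under 0.05 in the authors' deposited table. Over all tested genes 25.5% were called. In CNOT7-DN 1 rose, pabpn1l, at 175 FPKM in CNOT7-DN, against 87 FPKM in control 6 hpf, 2.02-fold higher. Of all tested genes 10.1% rose there.

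Other adaptors that bring CCR4-NOT to mRNAs also went both ways. Of 11 tested rows, 5 rose and 5 fell in control 6 hpf against 2 hpf in the authors' deposited table. Their median log2 ratio was -0.18. Over all tested genes 20.8% rose and 51.7% fell, with a median of -0.50. The ZFP36 row, a factor for AU-rich elements, was at 6.34 FPKM in control 6 hpf, against 0.457 FPKM at 2 hpf, whereas its relative zfp36l2 was at 11.8 FPKM in control 6 hpf, against 59.3 FPKM at 2 hpf. In miR-430 MO 2 rose and 2 fell, beside 9.41% and 16.1% of all tested genes. TNRC6A, the partner of Argonaute in microRNA silencing, was at 84.9 FPKM in miR-430 MO, against 54.7 FPKM in control 6 hpf. In control B it was at 89.0 FPKM. The germline translational repressor nanos3 was at 14.9 FPKM in miR-430 MO, against 23.9 FPKM in control 6 hpf. In control B it was at 15.5 FPKM. The other rise, that of ZFP36, was to 9.54 FPKM in miR-430 MO, against 6.34 FPKM in control 6 hpf, with 15.8 FPKM in control B. The rises of TNRC6A and ZFP36 and the fall of nanos3 thus rest on the choice of control. The other fall, that of zfp36l2, left it below both controls, at 6.86 FPKM in miR-430 MO. In CNOT7-DN 1 of 10 tested rose (zfp36l2) and 1 fell (ZFP36), beside 10.1% and 4.0% of all tested genes. The zfp36l2 level in CNOT7-DN, 16.1 FPKM, lay above control 6 hpf but not above control B, at 16.8 FPKM. That of ZFP36 lay below both controls. In amanitin against control B 2 of 12 rose and 4 fell, beside 41.6% and 29.2% of all tested genes.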

How the data were processed

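Per the submitters' processing notes, the authors used TopHat 1.4.0 and Cuffdiff 2.1.1 with the Zv9 (danRer7) build. Their table holds the deposited FPKM of both groups in each of 5 comparisons, per the file headers, and the authors' p-value and q-value. The sources used here give neither the annotation release nor the strand setting nor the scaling between libraries. They do not say either that the triplicates came from separate clutches, so q may measure technical spread only. Fold-change columns were not used. The level of each group was read from the comparison it was tested in; repeat columns of a group agreed to within 1.00001-fold for the 6 genes.

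Log2 ratios of FPKM + 1 were computed for all genes, and sizes were counted at 2-fold among genes whose higher group had 1 FPKM or more, which are also the genes of the median used for centring. No p-value was computed, since there is 1 value per group. The 6 genes, the lists and the tests were chosen with earlier results of these data known. Named genes are the 6 members, the 3 nearest profiles of each, and up to 4 called members per list. Profiles were sought among genes with a unique symbol and an FPKM of at least 5 in some group. Names with a colon, a clone-like dot or only digits were left out of that search. List symbols were matched regardless of case. Results were recomputed with other pseudocounts (0.1 and 5), another minimum (5 FPKM, or none), other size limits (1.5-fold and 4-fold), 3 rescalings and the other 6 hpf control. Scripts ran in Python 3.11.15 with numpy 2.4.6 and pandas 2.3.3 and were tested on simulated data.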

Additional observations from a re-analysis of the deposited data

How the results depend on the processing

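No paired analysis was possible because the table gives 1 value per group, and for the same reason no sample could be left out and no interval set. Centring on the median gene adds 0.47 to each log2 ratio of control 6 hpf against 2 hpf. It adds 0.12 for miR-430 MO and -0.037 for CNOT7-DN. For amanitin it adds -0.12 against control B and 0.34 against 2 hpf. Centring on ribosomal protein genes adds -0.95 for control 6 hpf against 2 hpf, 0.016 for miR-430 MO and 0.18 for CNOT7-DN. For amanitin that centring adds 1.11 against control B and 0.046 against 2 hpf.

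Called ratios of 2 genes changed sign with the scaling: btg4 in amanitin against control B was 0.75 centred on ribosomal protein genes, and btg2 in amanitin against 2 hpf was 0.0505 centred on the median gene. All other called ratios of the 6 genes kept their sign under both pseudocounts, the 3 rescalings and the other control. Some of them came near 0, however. The btg4 ratio in miR-430 MO was -0.019 over the other control. That of btg2 in control 6 hpf against 2 hpf was -0.0024 centred on the median gene. With equal sums the btg4 ratio in amanitin against control B was also near 0, at -0.0074.

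Counts of members at least 2-fold apart differed as follows. For control 6 hpf against 2 hpf the count lower, 2, was 3 with a pseudocount of 0.1, with equal sums and at 1.5-fold, 4 centred on ribosomal protein genes and 1 at 4-fold. For miR-430 MO the count higher, 2, was 0 at 4-fold and 1 over the other control (tob1a), and the count lower, 0, was 1 with a pseudocount of 0.1 and 2 at 1.5-fold. For CNOT7-DN the count higher, 0, was 1 over the other control (btg4). For amanitin against control B the count higher, 2, was 3 with equal sums and at 1.5-fold, 4 centred on ribosomal protein genes and 0 at 4-fold, and the count lower, 1, was 2 over the other control (btg1 and btg4). For amanitin against 2 hpf the count higher, 0, was 1 centred on the median gene and at 1.5-fold, and the count lower, 1, was 2 at 1.5-fold.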
